A study of Homo sapiens with 6 samples.

Results

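The genes described here are the 219 human olfactory receptor genes that lie outside chromosome 11, of 19974 protein-coding genes on chromosomes 1 to 22 and X. They were taken from the RefSeq gene table (GRCh38.p14) by symbol (OR, a family number, subfamily letters and a member number) and by chromosome, a rule that uses no measured value. The other 171 genes with such symbols, on chromosome 11, were used only for comparison. The cells were ACHN, an established line of human renal cell carcinoma, with the genotype ZCCHC8-KO (titled sgZ8) or ZCCHC8-WT (titled Ctrl). Both genotypes share the ACHN background, no treatment is named in the labels, and the labels do not say whether the knockout cells are 1 clone or a pool. Each genotype had 1 chromatin immunoprecipitation (ChIP) library for H3K27me3, 1 for EZH2 and 1 input library. The measurement is the authors' list of peaks for each of the 4 ChIP libraries, so nothing was tested between genotypes, no difference has a replicate check, and intervals below cover counting error only. These intervals treat genes and peaks as independent, although neighbouring receptor genes share windows and peaks, and are therefore likely too narrow. The peak lists cannot check the loss of ZCCHC8 itself.

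Olfactory receptors are G protein-coupled receptors of the nasal sensory neurons, the largest gene family in the human genome. Their coding sequence lies in a single exon, and the genes sit in tandem clusters on many chromosomes. A sensory neuron expresses 1 receptor gene from 1 allele and keeps the others silent; in mouse the silent genes carry the heterochromatin marks H3K9me3 and H4K20me3. H3K27me3 is the repressive histone mark written by Polycomb repressive complex PRC2, of which EZH2 is the catalytic subunit. ZCCHC8 is the scaffold of NEXT, the nuclear complex that passes short-lived RNAs to the RNA exosome, and the series asks how NEXT relates to the level of H3K27me3. A kidney tumour line is not a tissue in which these receptors have their sensory role.

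After identical lines were removed, the H3K27me3 lists held 69840 peaks in KO and 93095 in WT, and the EZH2 lists 19566 in KO and 30734 in WT. The depth of the libraries is unknown. Each peak has a score from the authors, whose definition is unknown as well and whose lowest value is 4 in the KO lists and 5 in the WT lists. As a check of the label, genes that a renal tubule carcinoma line would use were looked up (PAX8, PAX2, VIM, KRT8 and others): 0 of 9 had an H3K27me3 peak in KO and 1 of 9, CA12, in WT. Of 8 genes of blood, muscle, neurons and liver, 6 had an H3K27me3 peak in KO and 6 in WT. Over all protein-coding genes 23.2% had one in KO and 26.1% in WT. EZH2 peaks were at 0 of the 9 renal genes in KO and 3 in WT. They were at 5 of the 8 other genes in each genotype, and at 18.4% and 27% of all genes. Lists this short are a weak check.

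Olfactory receptor genes outside chromosome 11 carried H3K27me3 peaks more often than protein-coding genes as a whole, in KO and in WT alike. A gene is called marked here when a peak overlaps the gene or the 5 kb on either side by at least 1 bp. In KO cells 82 of the 219 genes were marked by H3K27me3 (37.4%, exact 95% Clopper-Pearson interval 31.0 to 44.2), against 23.2% of all protein-coding genes. In WT cells 101 were marked (46.1%, 39.4 to 53.0), against 26.1% of all. The receptor genes are short, with a median window of 15165 bp where that of all genes was 34164 bp. Among the 10703 protein-coding genes whose windows fall in the range of the middle 90% of the receptor windows, 17.4% were marked in KO and 18.1% in WT. On chromosome 11, 40 of 171 receptor genes were marked in KO and 59 in WT (23.4% and 34.5%).

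EZH2 did not stand out at these genes. It marked 24 of 219 in KO (11%, 7.15 to 15.9), against 18.4% of all protein-coding genes, and 32 in WT (14.6%, 10.2 to 20), against 27% of all. Among the genes with windows of similar length the shares were 9.94% in KO and 14.4% in WT. Of the receptor genes marked by EZH2, 18 of 24 in KO and 24 of 32 in WT were also marked by H3K27me3. Both marks together were found at 8.22% of the receptor genes in KO and 11% in WT, against 12% and 16.1% of all protein-coding genes. Among the genes with windows of similar length, both marks were found at 6.46% in KO and 7.83% in WT.

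The 2 genotypes marked partly different receptor genes, as they did over all protein-coding genes. H3K27me3 marked 70 in both genotypes, 12 in KO only, 31 in WT only and 106 in neither, where the shares over all protein-coding genes were 18.2% in both, 5.04% in KO only, 7.91% in WT only and 68.9% in neither. By the share of the window covered by peaks, 42 genes were higher in KO and 71 lower (19.2% and 32.4%, backgrounds 12.9% and 18.2%). With windows of similar length, 11.1% of genes were higher in KO and 12.5% lower. EZH2 marked 10 in both, 14 in KO only and 22 in WT only (4.57%, 6.39% and 10.0%, backgrounds 12.6%, 5.76% and 14.4%). In EZH2 covered share, 19 genes were higher in KO and 26 lower (8.68% and 11.9%, backgrounds 10.5% and 22.2%). Among the genes with windows of similar length, EZH2 marked 5.37% in both, 4.57% in KO only and 9.02% in WT only. Of those genes 6.99% were higher in KO and 11.9% lower in EZH2 covered share. The mean covered share of H3K27me3 was 2.10% of the window in KO and 2.89% in WT, where over all protein-coding genes it was 0.690% and 0.825%; for EZH2 it was 0.259% in KO and 0.307% in WT, beside 0.233% and 0.315%. All medians were 0. The EZH2 means lean on OR4D1, with 13.1% covered in KO and 12.9% in WT, and OR4D2, with 3.95% and 6.67%.

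Fewer H3K27me3 peaks were listed at the receptor genes in KO than in WT, in about the proportion of the whole genome. With overlapping windows merged, so that a peak shared by neighbouring genes counts once, 226 peaks lay in KO and 300 in WT, a KO/WT ratio of 0.753 (0.631 to 0.898, exact binomial interval). The ratio was 0.748 over the windows of all protein-coding genes and 0.750 over the genome. Covered length gave a ratio of 0.758. Peaks were denser here than in the genome as a whole, with 6.08 per 100 kb in KO and 8.07 in WT, against 2.30 and 3.07. For EZH2, 35 peaks in KO and 49 in WT gave a ratio of 0.714 (0.449 to 1.12), with 0.636 over the genome. The direction depends on how the lists are cut: when each pair of lists was limited to equal numbers by taking the highest scores, the H3K27me3 ratio was 1.004 and the EZH2 ratio 1.17, with 82 genes marked by H3K27me3 in KO and 80 in WT, and 24 by EZH2 in KO and 22 in WT. At a score of 7 or more the H3K27me3 ratio was 0.325, with 36 genes marked in KO and 77 in WT, and the EZH2 ratio was 0.258, with 3 and 23; over the genome the ratios at this score were 0.307 and 0.205. Equal list lengths set the genome ratio to 1 by construction.

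The peaks at receptor genes were of ordinary shape for these lists. Their median width was 284 bp in KO and 287 bp in WT for H3K27me3 (265 and 269 bp over the whole lists), and their median score was 6 in KO and 7 in WT, as in the whole lists. The highest score was 12 in KO and 14 in WT for H3K27me3, and 11 in both genotypes for EZH2. Of the KO H3K27me3 peaks here, 25.7% (20.1 to 31.9) overlapped a WT peak, and 19.7% (15.3 to 24.6) of the WT peaks overlapped a KO peak; over the genome these shares were 21.4% and 15.9%. Of the EZH2 peaks, 3 of 35 in KO overlapped a WT peak and 4 of 49 in WT overlapped a KO peak (8.57% and 8.16%), near the 7.96% and 5.12% of the genome. In KO 22.9% (10.4 to 40.1) of the EZH2 peaks lay on an H3K27me3 peak, and in WT 36.7% (23.4 to 51.7), where the genome-wide shares were 19.0% and 14.0%. The windows of OR4D1 and OR4D2 alone held 10 of the 35 EZH2 peaks in KO and 11 of the 49 in WT. Several of the overlaps lie there, and the shares without this pair were not computed.

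The genes were grouped into 32 clusters, with a new cluster wherever the next receptor gene lay 1 Mb or more away. The 15 clusters of 3 or more genes hold 195 of the 219, and the marked share ran from none to all of a cluster's genes. H3K27me3 marked 14 of 15 genes in KO and 15 of 15 in WT in the OR9K2 to OR10P1 cluster of chromosome 12, but 0 of 43 in KO and 3 of 43 in WT in the OR2B11 to OR14I1 cluster at the end of chromosome 1, the one with the most genes. The density of H3K27me3 peaks across the cluster from first to last gene exceeded that of the 1 Mb on both sides in 9 of the 15 clusters in KO and in 11 in WT. Some of these excesses rest on 1 peak, from OR13F1 to OR13D1 in KO and from OR7C1 to OR10H4 in each genotype.

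**Figure D1:**
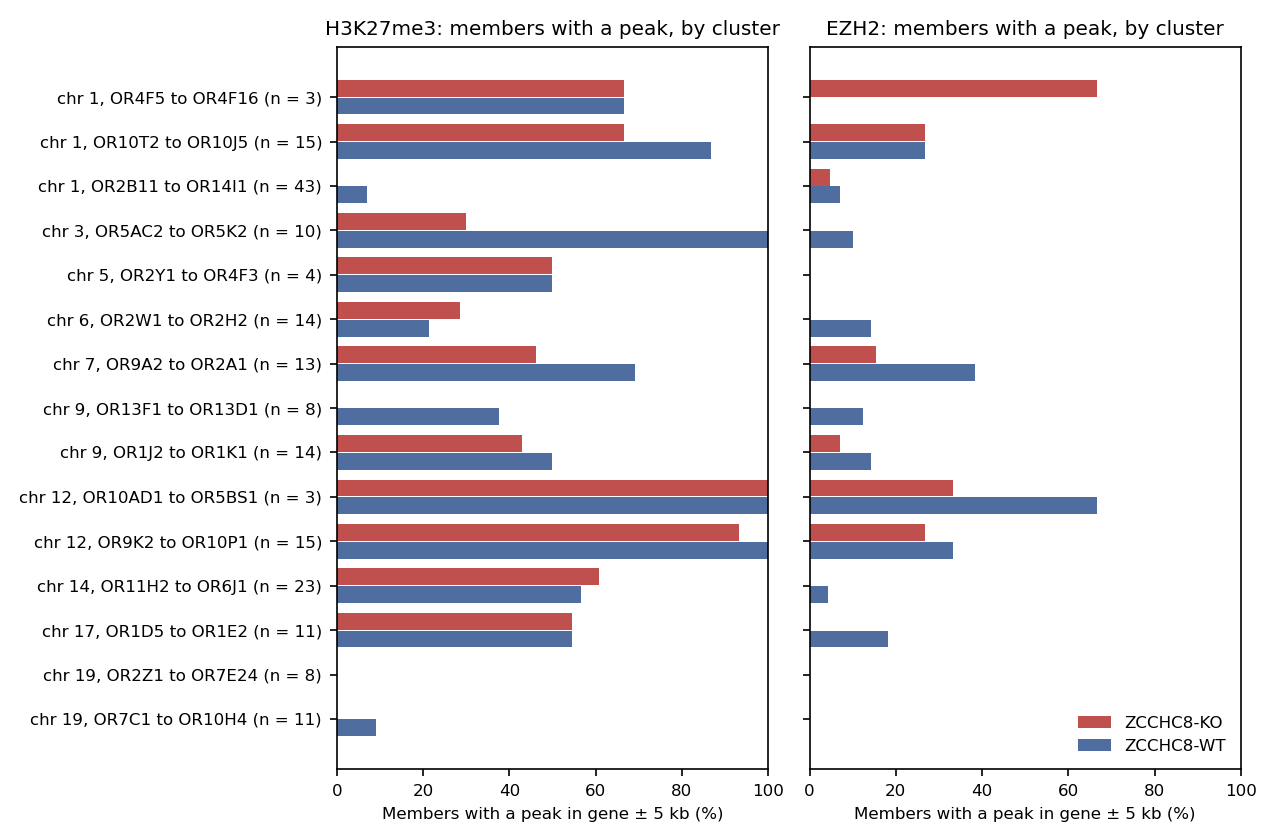
Share of the genes of each cluster of 3 or more olfactory receptor genes (rows, in chromosomal order, with the number of genes) that have at least 1 peak in the gene or the 5 kb on either side, for H3K27me3 (left) and EZH2 (right); bars are ZCCHC8-KO above ZCCHC8-WT, 1 library each. In both H3K27me3 lists all 3 genes of the OR10AD1 to OR5BS1 cluster were marked, and none of the 8 genes of the OR2Z1 to OR7E24 cluster.

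The OR6C cluster of chromosome 12 had the highest covered share of gene windows among the clusters of 3 or more genes. Counted from first to last gene, the OR10AD1 to OR5BS1 cluster was higher, with 18.4% covered in KO and 18.9% in WT, against 9.22% and 10.7% in the OR6C cluster. The cluster spans chr12:55126406-55637833, with OR9K2 at its start and OR10P1 at its end. In its merged windows 57 H3K27me3 peaks covered 10.6% in KO and 67 peaks covered 13.1% in WT (ratio of peak numbers 0.851, 0.587 to 1.23). From first to last gene it held 22.3 peaks per 100 kb in KO and 26.4 in WT, against 10.6 and 10.7 in the flanks. The core from OR6C74 to OR6C70 was covered to 14.0% in KO and 17.6% in WT.

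Within this cluster the order of genes differed between the genotypes. OR6C70 was covered to 22.5% in KO, by 5 peaks, and to 28.2% in WT, by 6 peaks. OR6C65 had 20.3% covered in KO and 22.7% in WT, and OR6C74 18.6% in KO and 19.7% in WT. These 3 genes were high in both lists. OR6C2 had 18.9% covered in KO and 30.2% in WT, OR6C6 6.03% and 18.9%, and OR10A7 1.88% and 11.2%, each with the lower value in KO. OR6C75 had no peak in the KO list, against 4 peaks and 10.3% in WT, and was the only gene of the cluster without an H3K27me3 peak in KO. The reverse order was seen at OR6C1 (14.8% in KO and 8.30% in WT), OR9K2 (12.1% and 6.34%), OR6C76 (8.25% and 3.47%) and OR6C3 (14.3% and 11.4%). EZH2 was sparse there, with 3 peaks in KO and 9 in WT in the same windows. OR6C74 had an EZH2 peak in both genotypes (1.41% covered in KO and 0.75% in WT), and so did OR2AP1 (2.26% and 5.45%). OR6C2 had 3 EZH2 peaks in WT (4.23%) and none in KO.

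Among the clusters of 3 or more genes, the OR2A cluster of chromosome 7 differed most between the genotypes in covered share. The cluster from OR9A2 to OR2A1 (chr7:143026200-144322737) had 13 H3K27me3 peaks covering 1.46% of its windows in KO, against 46 peaks covering 7.38% in WT. The ratio of peak numbers, 0.283 (0.140 to 0.532), lay below that of all 219 genes, and the whole of chromosome 7 had a ratio of 0.400, which is inside this interval. OR2A14 had 1 peak and 1.36% covered in KO, against 10 peaks and 19.0% in WT. OR2A25 had 2 peaks and 2.25% in KO, against 8 peaks and 18.1% in WT. OR2F1 had no H3K27me3 peak in KO, against 4 peaks and 13.9% in WT. Coverage at these 3 genes was thus almost entirely a feature of the WT list. OR2A2 was closer, with 6.96% in KO and 9.51% in WT. All 8 genes from OR2F2 to OR2A14 were marked in WT and 6 of them in KO. EZH2 marked 2 of the 13 genes in KO and 5 in WT. OR2F1 and OR6B1 had an EZH2 peak in both genotypes, covering 2.62% of the OR2F1 window in KO and 0.86% in WT, and 2.37% of the OR6B1 window in KO and 1.31% in WT. The next 3 genes, OR2A42, OR2A7 and OR2A1, had no peak in any list; OR2A42 and OR2A1 lie in duplicated sequence, where reads of near-identical copies may not have been placed, and this was not tested.

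**Figure D2:**
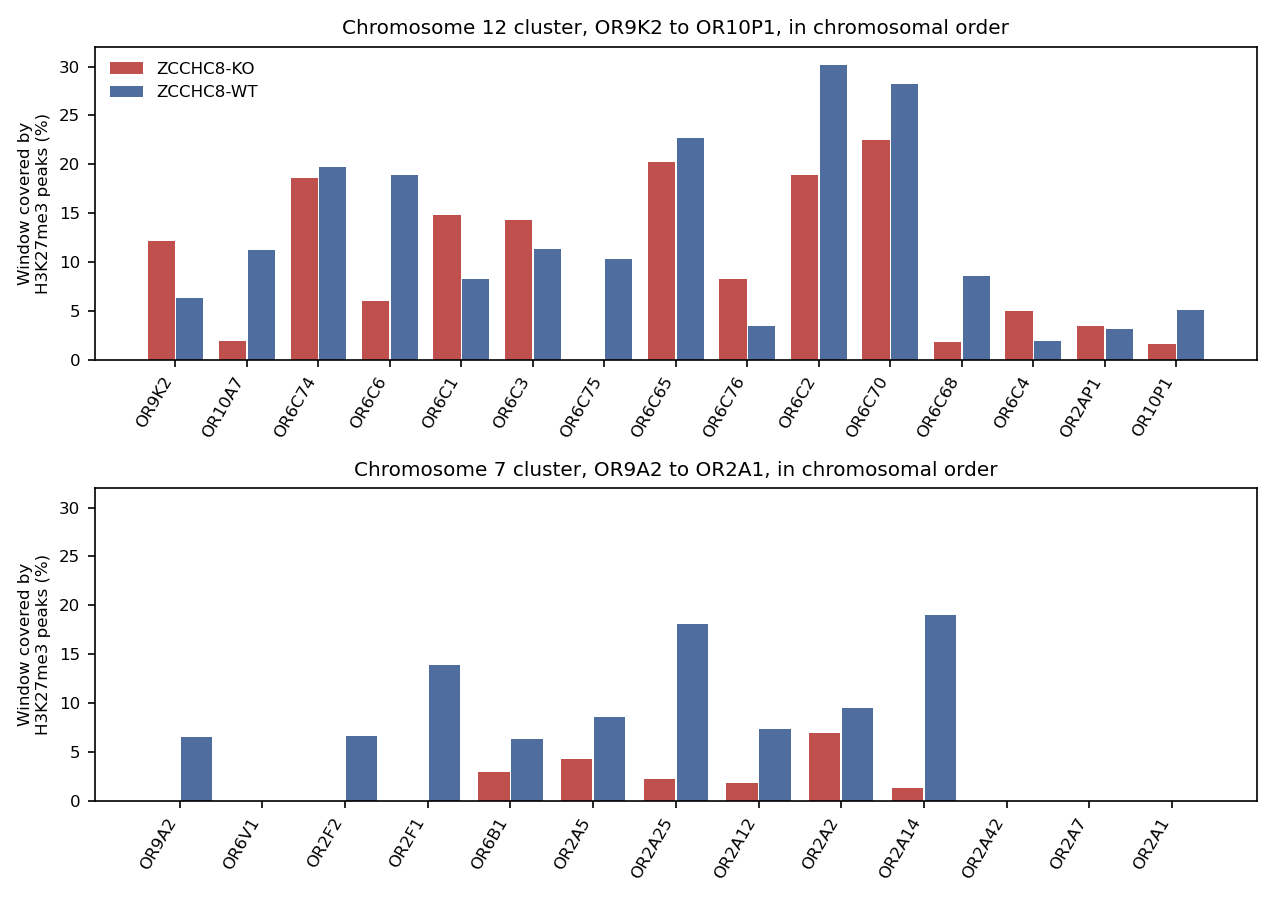
Percent of each gene's window (gene with 5 kb on either side) covered by H3K27me3 peaks, for the genes of the OR9K2 to OR10P1 cluster (top) and the OR9A2 to OR2A1 cluster (bottom) in chromosomal order, ZCCHC8-KO left of ZCCHC8-WT, 1 library each. OR6C70, OR6C65 and OR6C74 are high in both genotypes, while OR2A14, OR2A25 and OR2F1 are high in WT and near 0 in KO.

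On chromosome 3, the OR5 genes from OR5AC2 to OR5K2 (chr3:98087173-98498631) were all marked by H3K27me3 in WT and less often in KO. KO had 3 of 10 genes marked with 5 peaks, and WT 10 of 10 with 18 peaks, a ratio of 0.278 (0.0806 to 0.776). Chromosome 3 as a whole had a ratio of 0.773, just inside the upper bound. The 1 Mb on both sides of the cluster held 8 peaks in KO and 32 in WT, a ratio of 0.25. The low ratio was thus not confined to the receptor genes. OR5K2 had no peak in KO and 3 peaks covering 8.70% in WT. OR5K1, a receptor known to respond to pyrazines, had none in KO and 1 in WT (0.93%). OR5K3 went the other way, with 8.03% in KO and 2.91% in WT, by 1 peak in each. EZH2 had no peak at these genes in KO and 1 in WT, at OR5K4 (1.58%).

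The 2 clusters of chromosome 1 with more than 10 genes were unlike each other, and so were their surroundings. The 1 Mb on both sides of the OR10T2 to OR10J5 cluster held 224 H3K27me3 peaks in KO and 218 in WT. Around the OR2B11 to OR14I1 cluster, at the end of the chromosome, there were 14 in KO and 19 in WT. The contrast was thus not confined to the receptor genes. From OR10T2 to OR10J5 (chr1:158398522-159536007), H3K27me3 marked 10 of 15 genes in KO with 21 peaks and 13 in WT with 37 peaks (ratio 0.568, 0.316 to 0.995; chromosome 1 as a whole 0.875). OR10R2 had 5.23% covered in KO and 9.75% in WT, OR6K3 4.70% and 9.27%, and OR10K2 7.55% and 4.17%, so that single genes went both ways. Genes of innate immunity and cell adhesion lie among these receptors. IFI16 and PYDC5 had no H3K27me3 peak, while others were covered more broadly than the receptors there in KO: AIM2, a cytosolic DNA sensor, to 13.4% in KO and 11.6% in WT, and CADM3, a neuronal adhesion molecule, to 14.1% and 8.76%. OR10T2 and OR6N1 had an EZH2 peak in both genotypes; at OR10T2 it covered 2.02% in KO and 2.46% in WT. The OR2B11 to OR14I1 cluster (chr1:247449118-248702766) held no H3K27me3 peak in KO and 8 in WT from first to last gene, and 0 and 3 peaks in the gene windows. The marked genes in WT were OR13G1 (0.97%), OR2T12 (0.95%) and OR2T11 (1.44%), the last a receptor for volatile thiols. EZH2 had 2 peaks there in KO, at OR2T12 and OR2T11, and 3 in WT, at OR2L13, OR2T6 and OR2T2.

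The chromosome 14 cluster, OR11H2 to OR6J1, was marked about equally in the genotypes. H3K27me3 marked 14 of 23 genes in KO with 29 peaks and 13 in WT with 27 peaks (ratio 1.07, 0.614 to 1.89), and EZH2 marked none in KO and 1 in WT, OR11G2. OR4K2 had 7 peaks and 11.6% covered in KO, against 3 peaks and 4.54% in WT. OR4K17 had 2 peaks and 2.73% in KO, against 6 peaks and 12% in WT. OR11H2 had 2 peaks and 7.90% in KO and none in WT, but belongs to a family with close copies elsewhere. Near-equal totals in this cluster thus held genes that differed in both directions.

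The other clusters of 3 or more genes ran from fully marked to bare. On chromosome 12, OR10AD1, OR8S1 and OR5BS1 were all marked in both genotypes; OR5BS1 had 12.1% covered in KO and 3.46% in WT, and OR8S1 11.4% and 5.04%, with an EZH2 peak at OR8S1 in both genotypes (5.14% and 1.76%). From OR10AD1 to OR5BS1 there were 38.5 H3K27me3 peaks per 100 kb in KO and 41.6 in WT, against 6.15 and 5.80 in the flanks, and the neighbouring gene C12orf54 was covered to 22.1% in KO and 19.0% in WT. On chromosome 9, the OR1J2 to OR1K1 cluster had 6 of 14 genes marked in KO and 7 in WT, and the OR13F1 to OR13D1 cluster 0 of 8 in KO and 3 in WT. On chromosome 17, the OR1D5 to OR1E2 cluster had 6 of 11 marked in each genotype; OR1D5 had 8.71% covered in KO and 14.2% in WT, and OR1D2, a receptor also found in human sperm, 2.13% and 4.26%. On chromosome 6, next to the MHC genes, the OR2W1 to OR2H2 cluster had 4 of 14 marked in KO and 3 in WT; its span had 0.915 peaks per 100 kb in each genotype, where its flanks had 6.60 in KO and 7.45 in WT. On chromosome 19, 0 of 8 genes from OR2Z1 to OR7E24 were marked in either genotype, and from OR7C1 to OR10H4 none of 11 in KO and 1, OR7A17, in WT; EZH2 had no peak at any of these 19 genes. Few genes of chromosome 19 were marked at all, 7.37% in KO and 4.41% in WT for H3K27me3, and 3.997% in KO and 4.20% in WT for EZH2.

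The ratios of receptor windows were set beside those of their chromosomes. On the 8 chromosomes with at least 20 H3K27me3 peaks in receptor windows over both genotypes, the ratio in the windows ran between 0.278 on chromosome 3 and 1.67 on chromosome 5, and the ratio of the whole chromosome lay inside the counting interval on all 8.

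**Figure D3:**
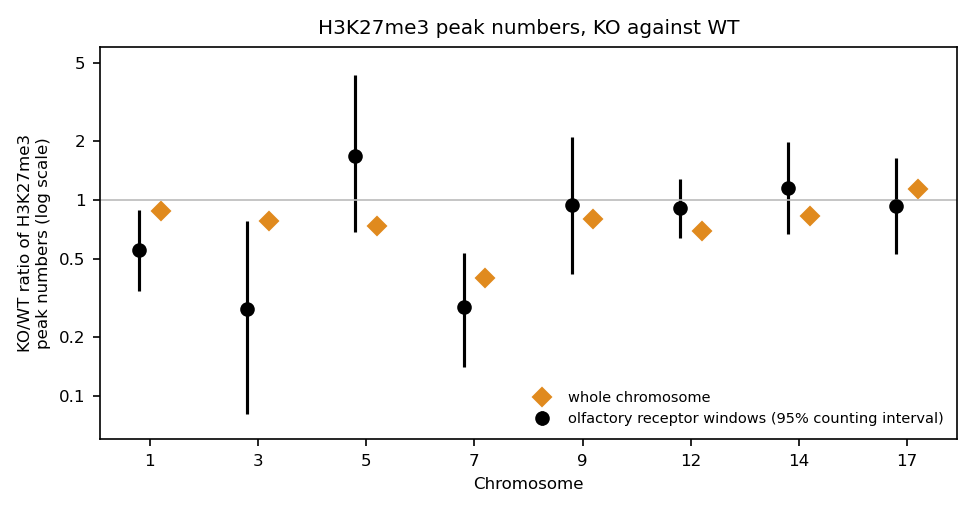
KO/WT ratio of the number of H3K27me3 peaks (log axis) in the windows of olfactory receptor genes (points with exact 95% counting intervals) and over the whole chromosome (diamonds), for the 8 chromosomes with at least 20 such peaks in the windows. The receptor windows have the lowest ratios on chromosomes 3 (0.278) and 7 (0.283), and every interval spans the ratio of its chromosome.

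The other 24 genes stand alone or in pairs, in 17 small clusters, of which H3K27me3 marked 12 genes in KO and 11 in WT, and EZH2 8 in KO and 4 in WT. The pair OR4D1 and OR4D2 on chromosome 17 was the most covered of all. OR4D1 (chr17:58148384-58159585) had 12 H3K27me3 peaks covering 26.0% of its window in KO and 13 covering 35.9% in WT, the highest values of all 219 genes in each genotype. OR4D2 (chr17:58166982-58171116) had 6 peaks in each genotype, covering 19.9% in KO and 22% in WT. EZH2 was also highest here: 8 peaks covered 13.1% of OR4D1 in KO and 9 peaks 12.9% in WT, and OR4D2 had 3.95% in KO and 6.67% in WT. Both marks were thus listed at both genes in both genotypes. The pair lies beside a group of peroxidase genes. LPO, which encodes lactoperoxidase, was covered by H3K27me3 to 17.9% in KO and 17.6% in WT. EPX, which encodes eosinophil peroxidase, had 6.52% in KO and no peak in WT, and MPO, which encodes myeloperoxidase, had 1.13% in KO and none in WT. MKS1, a gene of the ciliary transition zone that lies between them, had no H3K27me3 peak in either genotype.

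**Figure D4:**
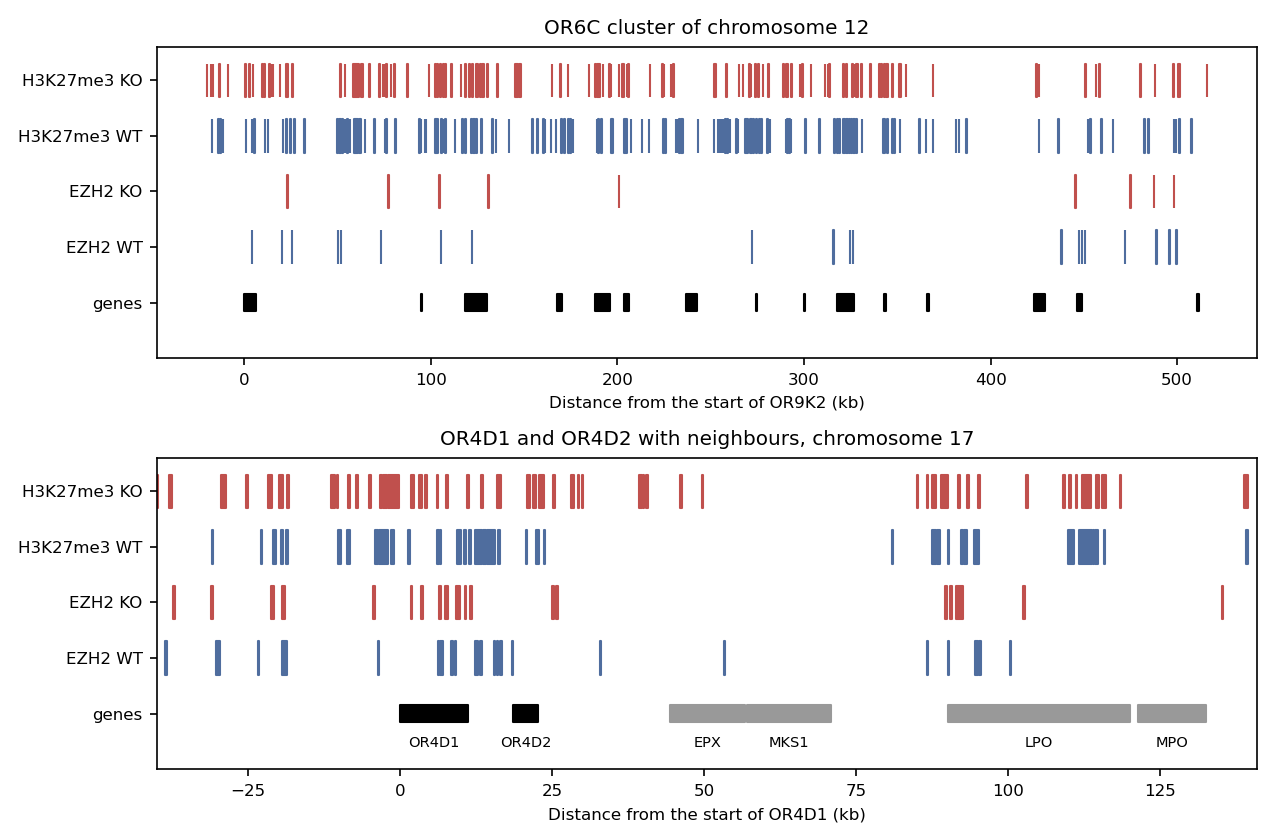
Positions of the peaks of the 4 lists (rows, ZCCHC8-KO above ZCCHC8-WT for each antibody) and of protein-coding genes (receptors black, others grey) over the OR6C cluster and over OR4D1 and OR4D2 with their neighbours, as distance in kb from the start of the first gene; narrow peaks are drawn slightly wider than they are. H3K27me3 peaks are spread through the OR6C cluster in both genotypes, and at the OR4D pair both antibodies have peaks, which stop before MKS1.

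Among the remaining small clusters, OR6B2 and OR6B3 on chromosome 2 were marked in both genotypes by H3K27me3 (2.48% in KO and 8.79% in WT at OR6B2, 6.13% and 6.97% at OR6B3), and OR6B3 also by EZH2 in both (1.99% and 2.62%). OR13A1 on chromosome 10 had 8.85% in KO and 5.37% in WT, and 2 EZH2 peaks in KO only. OR13J1 had 5.54% in KO and 3.4% in WT. OR1F1 had 3 H3K27me3 peaks in KO (3.10%) and none in WT, while its neighbour OR2C1 had only an EZH2 peak, in WT. OR2B6 was marked by H3K27me3 in KO only (1.64%) and OR2B2 in WT only (5.10%), and OR9A4 had an EZH2 peak in KO only (1.5%).

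Values at the OR4F and OR11H genes are uncertain, since these families include close copies between which reads may be split. OR4F3 had 14.1% covered by H3K27me3 in KO and 6% in WT, OR4F21 7.19% and 2.17%, OR4F29 4.31% and 2.06%, OR4F16 5.71% and 7.61%, and OR4F17 6.48% and 15.4%, so that the family had no common direction. OR11H1 had 6.46% in KO and 3.82% in WT, and OR11H12 5.65% and 2.36%. EZH2 peaks at OR4F5, OR4F16, OR4F17 and OR11H1 were listed in KO only. Without 17 genes of families with close copies (the OR4F and OR11H genes, OR2A42, OR2A7, OR2A1 and OR4M2), the H3K27me3 ratio was 0.711 and the EZH2 ratio 0.612, with 73 genes marked by H3K27me3 in KO and 94 in WT.

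Around gene starts, H3K27me3 at the receptor genes showed no dip common to both genotypes like that over all protein-coding genes. In the 177 receptor genes with a promoter entry, the kilobase before the start was covered to 3.24% in KO and 2.15% in WT and the kilobase after it to 2.50% and 4.13%. In the kilobases out to 10 kb on either side the coverage lay between 0.875% and 3.24% in KO and between 1.64% and 4.13% in WT. The kilobase before the start was thus the highest of all in KO, but in WT it was the lowest of those before the start. Over all protein-coding genes the kilobase after the start was covered to 0.35% in KO and 0.47% in WT, and the window from 6 to 5 kb before it to 1.07% and 1.40%. EZH2 at the receptor genes was at 0% in KO and 0.0305% in WT in the first kilobase after the start. Over all protein-coding genes that kilobase had 0.221% in KO and 0.330% in WT. Other kilobases at the receptor genes were as empty of EZH2, with 0% at 4 to 5 kb after the start in KO. In WT the stretch from 5 to 4 kb before the start had 0%.

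**Figure D5:**
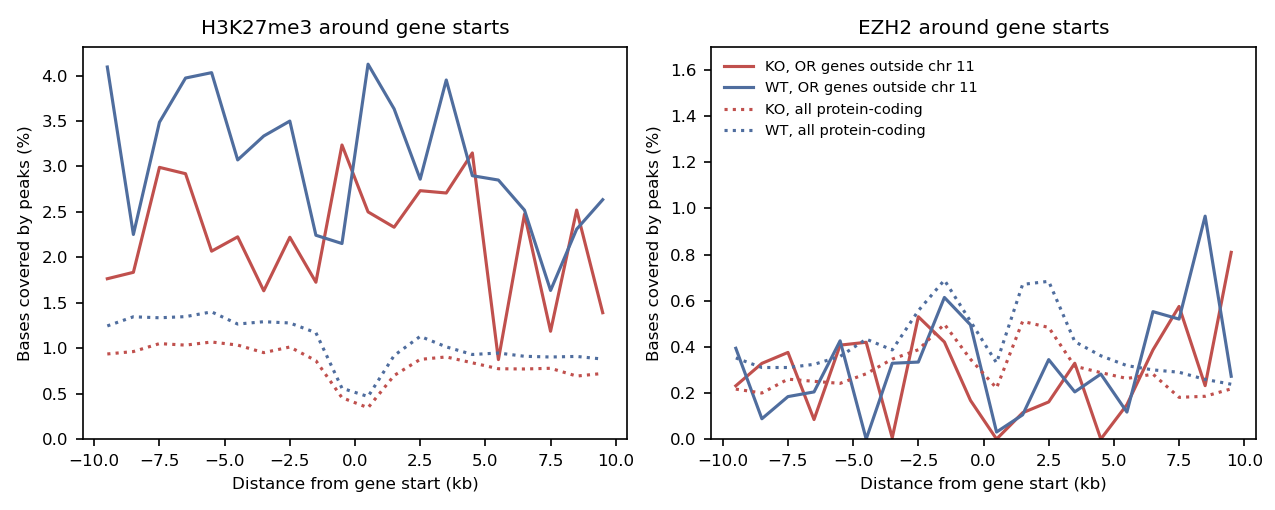
Percent of bases covered by H3K27me3 peaks (left) and EZH2 peaks (right) in 1-kb steps around gene starts, for the 177 olfactory receptor genes with a promoter entry (solid) and for all protein-coding genes with one (dotted), in ZCCHC8-KO and ZCCHC8-WT. Over all genes H3K27me3 drops at the start, and at the receptor genes it stays between 2.15% and 4.13% in the kilobase on either side.

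The promoters of the receptor genes are poor in CpG. Over the 300 bases from 250 before to 50 after the start in RefSeq (GRCh38.p14), the median G+C content of the 177 promoters was 38.3%, against 62.7% over 15812 promoters of protein-coding genes, and the median number of CpG was 1, against 22. An H3K27me3 peak touched 7 of the 177 promoters in KO and 10 in WT (3.95% and 5.65%, against 0.474% and 0.620% of all promoters), and an EZH2 peak touched 0 in KO and 2 in WT (0% and 1.13%, against 0.392% and 0.557% of all promoters). Only OR6C3 had an H3K27me3 peak in this window in both genotypes. OR10T2 and OR4D2 are shown because they are the 2 with an EZH2 peak there, OR4D1 because it had the highest coverage, OR2A12 because it had 2 H3K27me3 peaks at its promoter in KO, and OR7D4, the receptor for androstenone, as a promoter from the bare chromosome 19 cluster. Each line gives the 250 bases before the start on the gene's strand, 5′ to 3′.
For OR10T2 (chr1:158399467-158399716, minus strand) capitals mark the 225 bases under the EZH2 peak of the WT list.
OR10T2: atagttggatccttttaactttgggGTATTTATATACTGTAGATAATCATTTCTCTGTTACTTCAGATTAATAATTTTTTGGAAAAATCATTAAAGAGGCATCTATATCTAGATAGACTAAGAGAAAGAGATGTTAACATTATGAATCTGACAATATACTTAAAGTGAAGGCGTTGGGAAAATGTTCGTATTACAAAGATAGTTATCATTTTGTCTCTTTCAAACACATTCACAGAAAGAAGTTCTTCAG
For OR4D2 (chr17:58166732-58166981, plus strand) capitals mark the 159 bases under the EZH2 peak of the WT list.
OR4D2: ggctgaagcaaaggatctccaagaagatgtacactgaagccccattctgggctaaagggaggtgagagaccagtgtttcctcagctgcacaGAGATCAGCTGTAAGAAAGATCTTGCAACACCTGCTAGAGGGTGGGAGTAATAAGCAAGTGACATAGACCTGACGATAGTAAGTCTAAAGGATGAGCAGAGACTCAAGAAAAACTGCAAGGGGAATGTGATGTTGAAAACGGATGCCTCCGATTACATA
For OR4D1 (chr17:58148134-58148383, plus strand) capitals mark the 61 bases under an H3K27me3 peak of the KO list.
OR4D1: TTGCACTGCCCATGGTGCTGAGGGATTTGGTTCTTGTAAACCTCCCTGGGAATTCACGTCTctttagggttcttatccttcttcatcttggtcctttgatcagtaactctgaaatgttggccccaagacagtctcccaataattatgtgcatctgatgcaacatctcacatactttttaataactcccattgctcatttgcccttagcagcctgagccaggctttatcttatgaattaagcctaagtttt
For OR2A12 (chr7:144086028-144086277, plus strand) capitals mark the 59 bases under 2 H3K27me3 peaks of the KO list.
OR2A12: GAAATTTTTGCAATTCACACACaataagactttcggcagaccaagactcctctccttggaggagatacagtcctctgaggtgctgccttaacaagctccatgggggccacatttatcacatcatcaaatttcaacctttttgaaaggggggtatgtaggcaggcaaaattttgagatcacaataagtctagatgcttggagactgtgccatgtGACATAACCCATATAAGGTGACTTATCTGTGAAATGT
For OR7D4 (chr19:9219590-9219839, minus strand) no base lay under a peak of any list.
OR7D4: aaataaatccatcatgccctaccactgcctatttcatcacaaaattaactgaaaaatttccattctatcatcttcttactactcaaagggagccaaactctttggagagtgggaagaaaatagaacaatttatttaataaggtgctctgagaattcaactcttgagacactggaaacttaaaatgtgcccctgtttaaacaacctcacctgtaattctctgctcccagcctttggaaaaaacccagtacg
The OR10T2 stretch is A+T-rich with 29.2% G+C, and the OR4D2 stretch has 46.4%; the 5 stretches hold between 1 and 3 CpG each.

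Letter motifs were searched on both strands of the 300-base promoters. TAATTA, the core bound by many homeodomain proteins, was in 38 of the 177 receptor promoters (21.5%) and in 3.35% of all. TAATGA was in 40 (22.6%) and in 6.38% of all. The core of the site bound by EBF factors, CCCNNGGG, was in 14 (7.91%) and in 21.7% of all. The 93 promoters of genes marked by H3K27me3 in KO or WT and the 84 of unmarked genes were alike in composition, with a median G+C of 37.7% and 38.7%; TAATTA was in 19 of the marked and 19 of the unmarked, and TAATGA in 23 and 17. The receptor promoters have a median G+C of 38.3%, against 62.7% over all, and no background of matched composition was used. Whether the motif shares differ beyond base composition was not tested. These matches are letters only and show no binding.

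Genes of the olfactory pathway were looked up in the same way. Over all protein-coding genes H3K27me3 marked 23.2% in KO and 26.1% in WT, and EZH2 18.4% and 27%. The pathway genes were not matched for window length, and a longer window can hold a peak more readily. Of 15 genes that carry or support the odorant signal, H3K27me3 marked 10 in KO and 10 in WT, 8 of them in both. EZH2 marked 9 of the 15 in KO and 7 in WT. GNAL, the olfactory G protein, had 2.17% covered in KO and 1.31% in WT, and REEP1, a receptor accessory protein, 4.69% and 2.38%. PDE1C, a phosphodiesterase of the sensory cilia, lies on chromosome 7 and had 51 peaks and 1.77% in KO, against 125 peaks and 5.64% in WT. ADCY3, CNGA2 and OMP had no H3K27me3 peak in either. Of 16 factors of olfactory neurons and receptor choice, H3K27me3 marked 4 in KO and 5 in WT, and EZH2 marked 5 in each. EMX2 and LHX2, homeodomain factors needed in mouse for receptor expression, carried EZH2 over 26.9% in KO and 33.0% in WT at EMX2 and over 7.99% and 10.7% at LHX2, with H3K27me3 over 1.25% and 5.18% at EMX2. The EZH2 coverage of EMX2 was above that of all 219 receptor genes in both genotypes, and that of LHX2 was above all but OR4D1. Of the 129 other protein-coding genes within the receptor clusters, H3K27me3 marked 32 in KO and 36 in WT (24.8% and 27.9%), and EZH2 14 and 28 (10.9% and 21.7%).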

How the data were processed

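Per the labels' protocols, formaldehyde-fixed ACHN chromatin was sonicated, precipitated and sequenced from both fragment ends. The analysis used the peak lists of the 4 ChIP libraries among 6 samples (the other 2 are inputs), grouped by the genotype and title labels. cutadapt 1.9.3, Bowtie2 2.2.4 and the hg38 build are named in the submitters' processing notes; the sources used here do not name the peak caller, and depth is unknown. In each deposited list the authors give peak coordinates (read as 1-based), the peak length in bp and a score per peak, used only to filter or rank peaks. A p threshold of 0.001 appears in the peak names. Identical lines, up to 81 per peak, were counted once.

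Windows, overlaps and covered shares came from scripts in Python 3.11.15 with pandas 2.3.3 and NumPy 2.4.6, intervals from SciPy 1.17.1, promoter comparisons from Biopython 1.88 and figures from matplotlib 3.10.9. The window routine was checked on the lists themselves. For each list, covered length equalled a base-by-base count in 50 of 50 windows. In addition, 200 of 200 genes stripped of peaks, among 19974, were called lost, an outcome that the removal step itself sets. Coordinates and sequences are those of RefSeq GRCh38.p14, an hg38 assembly; 177 of the 219 genes have a promoter sequence there. The genes and lists were chosen with earlier results of these data known. By rule, the 10 genes highest in each list, the 10 with the largest excess and deficit in KO per antibody, all genes marked by EZH2 in both genotypes, and all marked genes of clusters of 1 or 2 were eligible for naming (46 in all); other receptor genes were named after their values were seen. In a departure from the design, which asked for proteins, genes with close copies were taken from known copy families, and from promoters of 95% identity or more, which only OR4M2 met. Alternatives changed the window, the score threshold, the list length, the overlap rule and the genes included. 1 gene of the renal marker list is not reported here.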

Additional observations from a re-analysis of the deposited data

How the results depend on the processing

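Each of 8 results (genes marked, ratio of peaks and ratio of covered length, per antibody) was recomputed under 9 other settings, 72 values in all, of which 58 kept their direction and stayed within the counting interval or within 1.5 times the count. Settings that left out genes of families with close copies or OR4D1 and OR4D2 were chosen after seeing the data. With windows of gene and 1 kb, 54 genes were marked by H3K27me3 in KO and 12 by EZH2 in KO. With windows of gene and 20 kb, EZH2 marked 48 in KO and 62 in WT. At a score of 7 or more, H3K27me3 marked 36 in KO and EZH2 3 in KO, the KO/WT ratios of H3K27me3 were 0.325 for peaks and 0.382 for covered length, and those of EZH2 were 0.258 and 0.348. With lists cut to equal numbers of peaks, the ratio of H3K27me3 peaks turned to 1.004 and that of covered length was 0.910, and those of EZH2 turned to 1.17 and 1.30. The KO lists hold lower scores than the WT lists, and whether a score means the same in both was not tested. Without chromosome 7 the ratio of H3K27me3 peaks was 0.839. Without OR4D1 and OR4D2 the EZH2 ratio was 0.658 for peaks and 0.789 for covered length. No paired analysis was possible because each antibody and genotype has 1 library. Read depth is unknown, and with 1 library per group a difference between genotypes cannot be told apart from a difference between libraries.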

Other observations

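Other chemoreceptor families were looked up by symbol with the same windows. Of all protein-coding genes, 23.2% were marked by H3K27me3 in KO and 26.1% in WT, and 18.4% and 27% by EZH2. All 6 trace amine-associated receptor genes, which lie together on chromosome 6, were marked by H3K27me3 in WT and 4 of them in KO. TAAR9 had 3.63% of its window covered in KO and 10.3% in WT, TAAR6 4.50% and 10.0%, and TAAR8 1.73% and 8.80%, and all 6 were lower in KO. Of 25 bitter taste receptor genes, 6 were marked in KO and 11 in WT. TAS2R7 on chromosome 12 was alike in the genotypes, with 11.2% in KO and 12.6% in WT, while its neighbours TAS2R8 and TAS2R9 had 1.05% and 0% in KO, against 13.1% and 13.6% in WT. Of the 4 that lie inside the OR9A2 to OR2A1 cluster of chromosome 7, TAS2R40 had 3.33% in KO and 9.28% in WT, and TAS2R39, TAS2R41 and TAS2R60 had no H3K27me3 peak in KO, against 2.85%, 10.7% and 8.84% in WT. Of the 3 sweet and umami receptor genes, 1 was marked in KO and 2 in WT, and of the 3 vomeronasal genes, all on chromosome 19, none in either. EZH2 marked 0 of 6 trace amine-associated receptor genes in KO and 2 in WT, and 2 of 25 bitter receptor genes in KO and 6 in WT.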
